A study of Mus with 7 samples.

Results

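Fetal liver-derived macrophages (FLMs) given 20 ng/mL LPS for 4 h after the vehicle treatment were compared with FLMs that had the vehicle treatment and no LPS. The comparison rests on 3474 of the 11640 cells that passed the study's limits, in 2 of its 7 libraries, with 2481 cells in Veh.LPS.0 and 993 in Veh.LPS.4. Cells were chosen by library label and quality alone, as barcodes with more than 20000 unique molecular identifiers (UMIs), at least 2000 genes and under 20% of UMIs in mitochondrial genes. A UMI marks a single captured RNA molecule, and molecules were captured at their 3′ end, so that a long gene is not counted more often than a short one.

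Lipopolysaccharide (LPS), an outer membrane component of Gram-negative bacteria, is bound by LBP and CD14 and handed to the receptor pair TLR4 and MD-2. Through the adaptor MyD88 the receptor activates NF-κB and MAP kinases, which turn on cytokine and chemokine genes, and through TRIF it activates IRF3, which turns on type I interferon. Interferon leaving the cell then acts through its receptor on STAT factors and IRF9 to induce antiviral genes. Macrophages answer LPS in waves, with early transcription factors and inhibitors first and many secreted proteins, enzymes and interferon-induced genes later.

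FLMs are non-transformed cells grown from the liver of wild-type C57BL/6J mouse fetuses that keep dividing in GM-CSF, here 30 ng/mL, and serve as a self-renewing macrophage model. They may not match the macrophages of any 1 tissue. Veh.LPS.0 cells had been held for 24 h in medium with 0.25% FBS and 8.3 µM BSA, the carrier used for the fatty acid DHA in other cultures. For Veh.LPS.4, that medium was taken off after the same 24 h and replaced by treatment medium with LPS, and the cells were collected 4 h later. The removal of the BSA medium and the extra 4 h in low serum cannot be told apart from LPS here, since no library had a change of medium without LPS. Each condition was 1 library, so no test was run, and the 95% intervals are exact binomial intervals that cover counting error only. Con cells had stayed in 10% FBS, Veh.LPS.1 cells had 1 h of LPS, and DHA.LPS.0, DHA.LPS.1 and DHA.LPS.4 were cultures given 25 µM DHA on the same BSA, with the same hours of LPS.

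Veh.LPS.0 held 98763388 UMIs in the kept cells, with a median of 36897 UMIs and 5679 genes per cell, and Veh.LPS.4 held 58598526 UMIs, with medians of 56239 UMIs and 5703 genes. Over the other 5 libraries, median depth ran from 29369 to 46928 UMIs. The mitochondrial limit was missed by 37.8% of the deposited barcodes of Veh.LPS.0 and by 54.7% of those of Veh.LPS.4. The part of this difference, and of the difference in depth, in the results was not tested beyond the alternatives given at the end. The 9 macrophage markers, Spi1, Itgam, Fcer1g, Tyrobp, Cd68, Cd14, Csf1r, Adgre1 and Lyz2, were detected in both libraries and summed to 5928 CPM (UMIs scaled to a common library total) at 0 h and 7089 CPM at 4 h. Single markers went both ways. Cd14 was among the genes called higher below, while Lyz2, the marker of highest level, had 2175 and 2065 CPM. Mast cell markers had no UMI in either library, neutrophil markers summed to 0.506 and 2.70 CPM with Mpo, Ltf and Mmp8 at 0, and hepatocyte markers to 5.61 and 7.71 CPM, nearly all of it Afp, with Alb at 0. Erythroid, stromal, endothelial, dendritic cell and lymphoid markers each summed to under 2 CPM in both libraries, with Lum, Flt3 and Cd3e at 0. With no second cell type in the cultures, the level of free RNA in the droplets could not be measured.

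Summed UMIs per gene were scaled to CPM and, since a few genes took up much more of the total at 4 h, also with TMM factors, which add 0.40 to every log2 ratio of 4 h over 0 h. Of 31053 genes in the files, 9784 had a mean over both libraries of at least 2 CPM and were assessed by the size of their ratio. A gene was called higher or lower only if it differed by more than 2-fold with both scalings. By that rule 560 genes were higher at 4 h, 5.72% of those assessed, and 1354 were lower, 13.8%. The remaining 7870 genes passed neither limit. A gene near 0 CPM at 0 h was assessed only if high at 4 h, which fixed its higher call. Of the higher genes, 7 had no UMI at 0 h, and counts and medians of lists include such genes. With CPM alone 19.1% of the calls were higher, with TMM factors alone 41.6%, and with both 29.3%. The median log2 ratio of all genes assessed was -0.41 with CPM and -0.02 with TMM factors, so the log2 ratios of CPM given below are to be read against -0.41. A log2 ratio between -0.40 and 0 is below 0 with CPM and above 0 with TMM factors. At the extremes, 61 genes were more than 16-fold higher and 6 more than 16-fold lower.

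**Figure D1:**
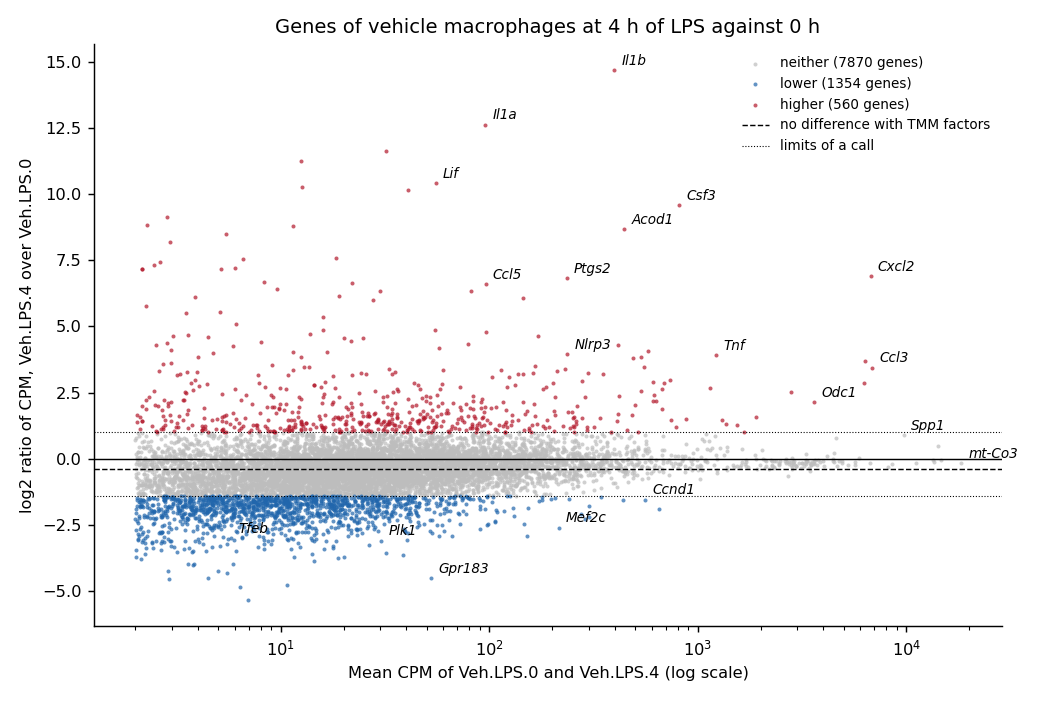
Mean CPM of Veh.LPS.0 and Veh.LPS.4 (log axis) against the log2 ratio of CPM, with 1 dot for each of the 9784 genes assessed, red for the 560 called higher and blue for the 1354 called lower. The dots of the higher genes reach log2 ratios above 14 and those of the lower genes stay above -6, and the dashed line at -0.40 is where TMM factors put no difference.

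The total was redistributed toward few genes. The 23 measured genes of CC and CXC chemokines took 0.463% of all UMIs at 0 h and 5.49% at 4 h, 11.9 times as much. The 560 higher genes together went from 2.77% to 14.2% of UMIs and the 1354 lower genes from 4.19% to 1.15%. Both sets were chosen by the ratio between these same libraries, which fixed the direction of these shifts. At 4 h 140 genes held 50% of all UMIs, against 181 at 0 h, 186 at 1 h and 239 in Con. In the DHA cultures the number was 164, 162 and 151 at 0, 1 and 4 h. The 100 most abundant genes of each Veh library held 41.3% of UMIs at 0 h and 44.0% at 4 h. The 83 cytosolic ribosomal protein genes took 24.5% and 21.6% of UMIs, and none of the 80 that were assessed was called, with a median log2 ratio of -0.17 that turned to 0.22 with TMM factors. Cells of Veh.LPS.4 also held more UMIs each, with a mean of 59012 against 39808, and counted as UMIs per cell every log2 ratio would be 0.57 higher.

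**Figure D2:**
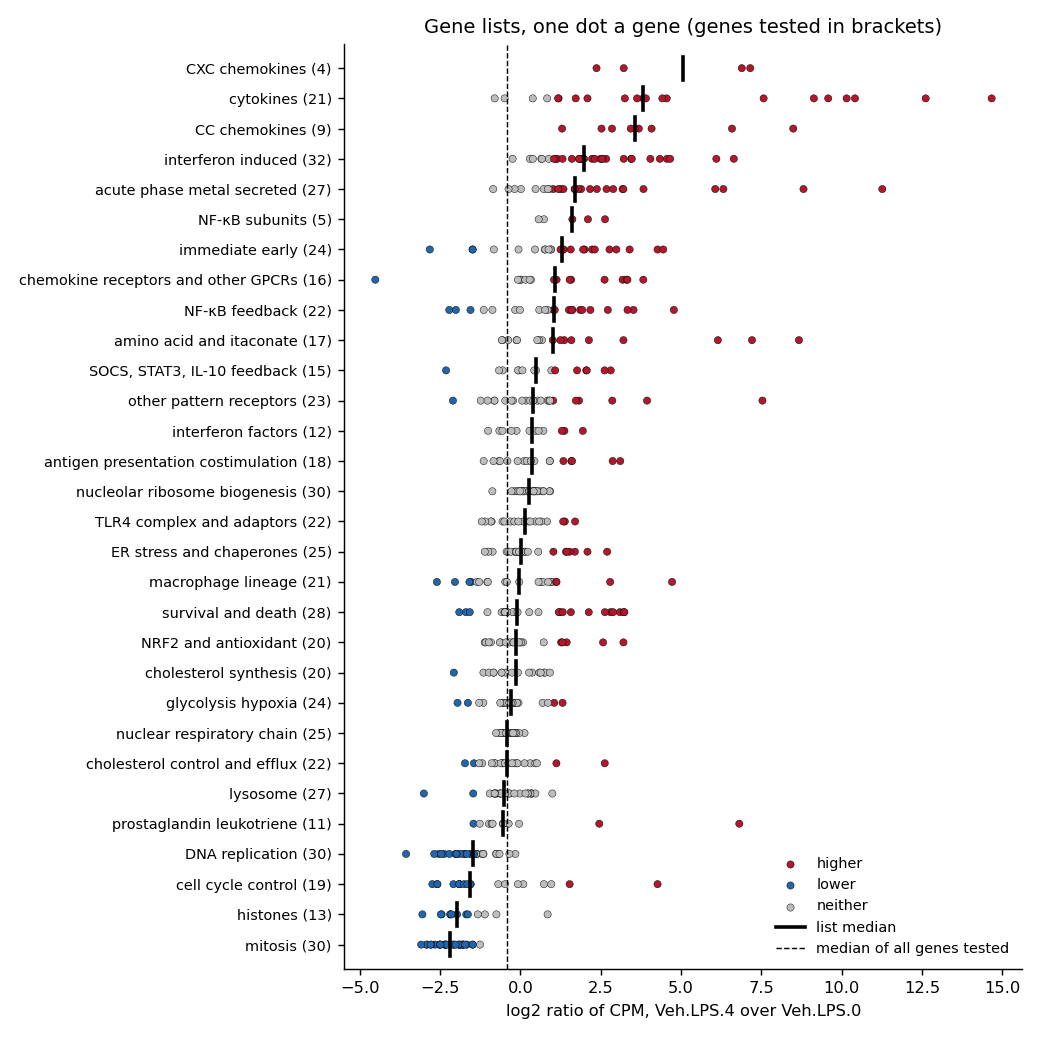
Log2 ratio of CPM at 4 h over 0 h for every assessed gene of 30 gene lists, ordered by the list's median (black bar), with the median of all genes assessed as a dashed line at -0.41. CXC chemokines and cytokines stand at the top with medians of 5.06 and 3.82, and mitosis genes at the bottom with -2.20.

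Cytokines formed the group with the highest ratios of single genes. Of 28 listed genes 21 were assessed, 17 were higher and none lower, with a median of 3.82, where 5.72% of all genes assessed were higher and 13.8% lower. Members such as Il1b, Il1a, Lif and Csf2 were near 0 CPM at 0 h and assessed only through their 4 h level, which fixed their calls. Il1b (ENSMUSG00000027398, chromosome 2: 129364569-129371164), the pro-form of interleukin 1β, and Il1a, interleukin 1α, had no UMI among the 98763388 of Veh.LPS.0. At 1 h they were at 10.6 and 5.32 CPM, and at 4 h Il1b reached 792 CPM and Il1a 191 CPM. Against a floor of 3 UMIs their log2 ratios were at least 14.67 and 12.62. Il1f6, which encodes interleukin 36α of the same family, had 2 UMIs at 0 h and went from 0.0203 to 63.9 CPM, with a log2 ratio of 11.62 (9.77 to 14.67). Il1rn, the antagonist of the interleukin 1 receptor, was already present in Veh.LPS.0 and had 64.5, 129 and 913 CPM at 0, 1 and 4 h. In Veh.LPS.0 mRNA of the antagonist was thus present while that of neither agonist was detected.

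The growth factors and the cytokines of the interleukin 6 family followed. Csf3, which drives neutrophil production, had 2.12, 92.9 and 1622 CPM at 0, 1 and 4 h, a ratio of 767 (669 to 882) at 4 h. Its log2 ratio, 9.58, was 10.57 without the tenth of cells with most UMIs and 8.79 in the cells of lowest share of cycle UMIs defined with the chemokines below. Csf2, which encodes GM-CSF itself, the factor these cells were given, was higher, from 0.0709 to 80.9 CPM. Lif, a cytokine that signals through gp130, was higher, from 0.0810 to 111 CPM, and Il6, the main inducer of the acute phase response, from 0.192 to 36.6 CPM. Both were still under 1 CPM at 1 h, where Tnf, the early cytokine TNF, had already passed its level at 4 h. Tnf had 152, 3799 and 2287 CPM at 0, 1 and 4 h, a log2 ratio of 3.91 (3.88 to 3.93) at 4 h. Il23a and Il27, the p19 and p28 chains of heterodimeric cytokines, reached 15.4 and 38.4 CPM, with log2 ratios of 4.42 and 4.56. Il12b, the p40 chain that pairs with p19, had 2 UMIs at 4 h and Il10, the main cytokine that restrains macrophages, 27, which was under the limit for assessment. Ifnb1, interferon β, had no UMI at 0 h and 3.36 CPM at 4 h, with a mean under the same limit, and was seen in 1.41% of the 4 h cells thinned to 20000 UMIs. Il15, with 2.997 and 1.72 CPM, had the lowest ratio of the list and was not called.

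All 13 assessed chemokine genes were higher, 9 of the CC and 4 of the CXC class, with medians of 3.56 and 5.06, where 5.72% of all genes assessed were higher. Ccl22 and Cxcl3 had no UMI at 0 h and were assessed only through their 4 h level, which fixed their calls. Cxcl2 (chromosome 5: 90903899-90905938), a neutrophil attractant, had 4.96 CPM in Con and 112, 7543 and 13362 CPM in Veh at 0, 1 and 4 h, the largest gain in CPM of any gene, with a ratio of 119 (117 to 121). The monocyte attractants Ccl2, Ccl7 and Ccl12 were higher by log2 ratios of 3.69, 4.09 and 3.56, and Ccl2 reached 11723 CPM. Ccl3 and Ccl4, the macrophage inflammatory proteins 1α and 1β, went from 1159.5 to 12558 CPM and from 1524 to 11012 CPM. The annotated spans of these 2 genes overlap, so their counts are uncertain there. Ccl9 was higher, from 823 to 4745 CPM and Ccl6 from 11.8 to 29.1 CPM. These ratios moved with the choice of cells. In the 1 in 3 cells of each library with the lowest share of UMIs in replication and mitosis genes, a share of up to 0.292% at 0 h and 0.0413% at 4 h, the log2 ratios of Cxcl2, Ccl2, Ccl3 and Ccl4 were 5.97, 2.69, 2.68 and 1.94.

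Other chemokines were scarce or absent without LPS. Ccl5, a T-cell and monocyte attractant, was higher, from 1.97 to 190.0 CPM, with a log2 ratio of 6.59 (6.38 to 6.80). Ccl22, which binds CCR4, and Cxcl3, a close relative of Cxcl2, had no UMI at 0 h and 10.96 and 4.33 CPM at 4 h, log2 ratios of at least 8.49 and 7.16. Cxcl10, the interferon-inducible ligand of CXCR3, was higher, from 6.64 to 61.8 CPM, and Cxcl16, which is made as a membrane protein, from 10.4 to 53.9 CPM. Ccl17, the neighbour of Ccl22, had 0 and 2.42 CPM, below the limit for assessment, as were Ccl8, Ccl24, Cxcl14 and Pf4. Cxcl1, Cxcl5, Cxcl12 and Ppbp had no UMI in either library, which allows up to 3 UMIs in each, and Cxcl9 had 1 UMI at 4 h. So of the neutrophil attractants of the CXC class, Cxcl2 was high while Cxcl1 and Cxcl5 were not detected.

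**Figure D3:**
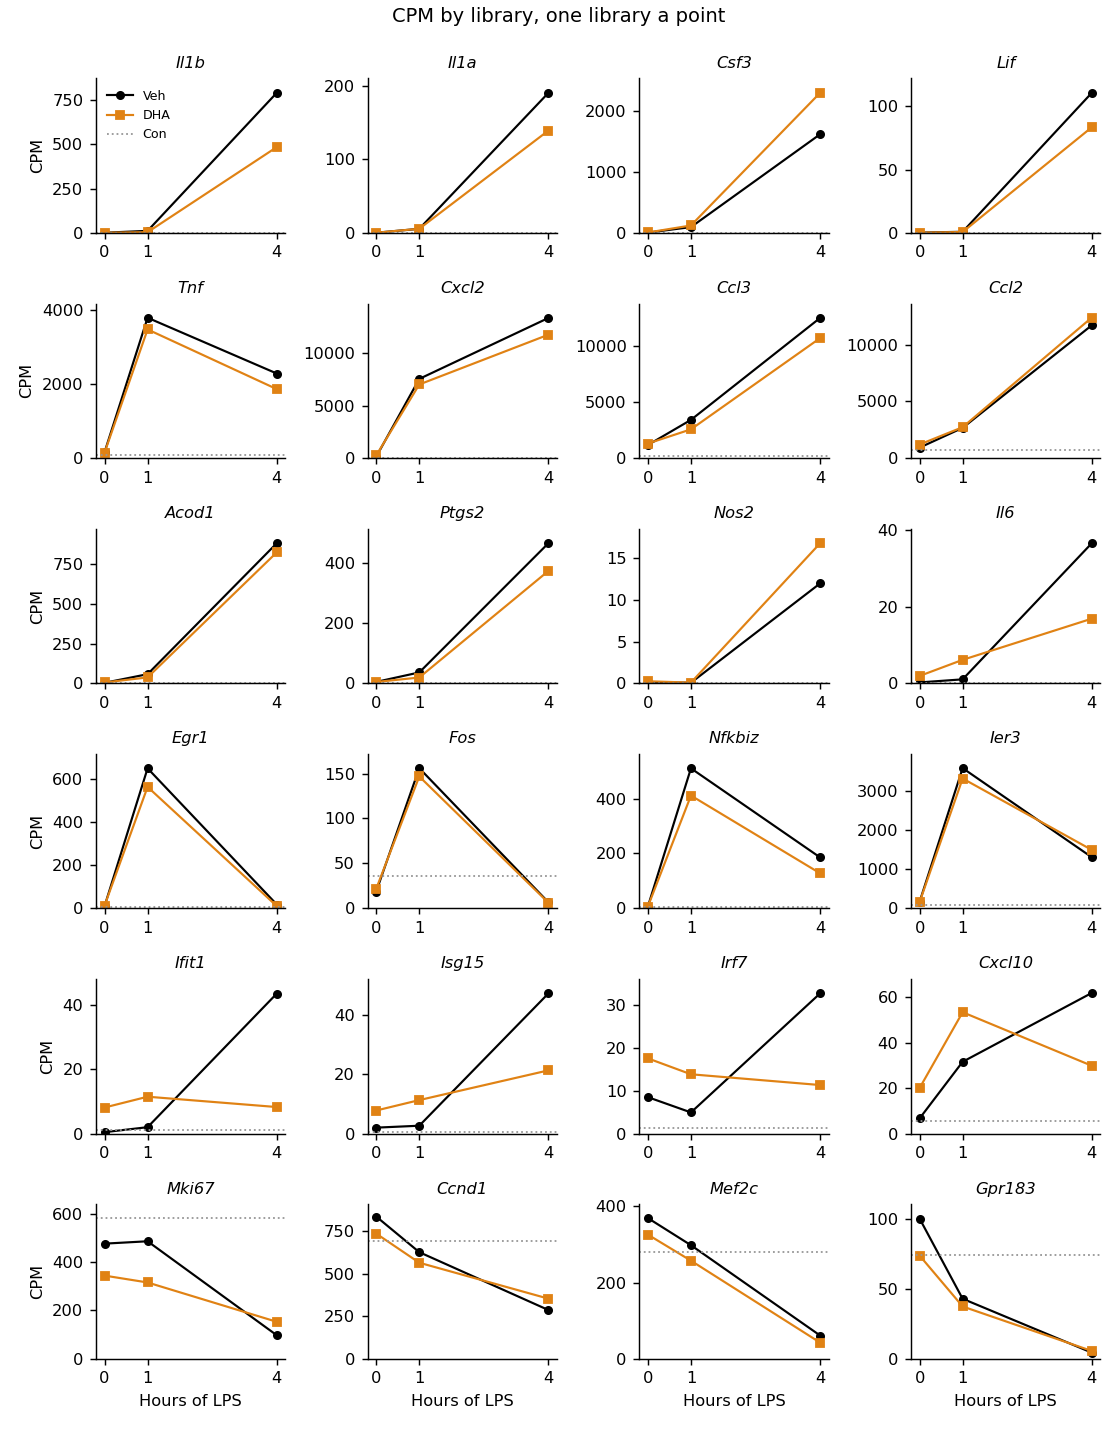
CPM against hours of LPS for 24 genes, with 1 library a point, black for Veh, orange for DHA and a dotted line for Con. The interleukin 1 genes, Csf3 and Lif are low at 1 h and high at 4 h, Tnf, Egr1, Fos, Nfkbiz and Ier3 are highest at 1 h, and Mki67, Ccnd1, Mef2c and Gpr183 are lowest at 4 h in both arms.

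Several of these genes lie side by side. On chromosome 11 (82035577-83752646, build GRCm38, which is mm10, positions from RefSeq), the 25 protein-coding genes assessed between Ccl2 and Wfdc21 included 15 that were higher and 1, the DNA repair gene Rad51d, that was lower. The stretch was set by higher genes at both ends, so its share is not to be read against the 5.72% higher and 13.8% lower of all genes. All 8 assessed genes of the stretch from Ccl5 to Wfdc21 (83525778-83752646) were higher, among them Wfdc17, Wfdc18 and Wfdc21, which encode small proteins with a protease inhibitor fold. Between the 2 chemokine groups lie Slfn genes, of which Slfn2, Slfn4, Slfn5 and Slfn8 were higher and Slfn3 and Slfn9 were not called. Runs of at least 3 higher genes with gaps of at most 100 kb between them held 45 of the 508 higher protein-coding genes that could be placed. Another such run was Ifit2, Ifit3 and Ifit1 on chromosome 19 (34550550-34650009). The interleukin 1 genes lie on chromosome 2 in 2 groups, Il1a and Il1b at 129299609-129371164, and Il1f9, Il1f6 and Il1rn at 24186476-24351491. All 5 were higher. Without LPS all but Il1rn were nearly absent, and these were assessed only through their 4 h level, which fixed their calls. Il1f9, which encodes interleukin 36γ, went from 1 UMI to 5.70 CPM, a log2 ratio of 9.14 (6.65 to 14.44).

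**Figure D4:**
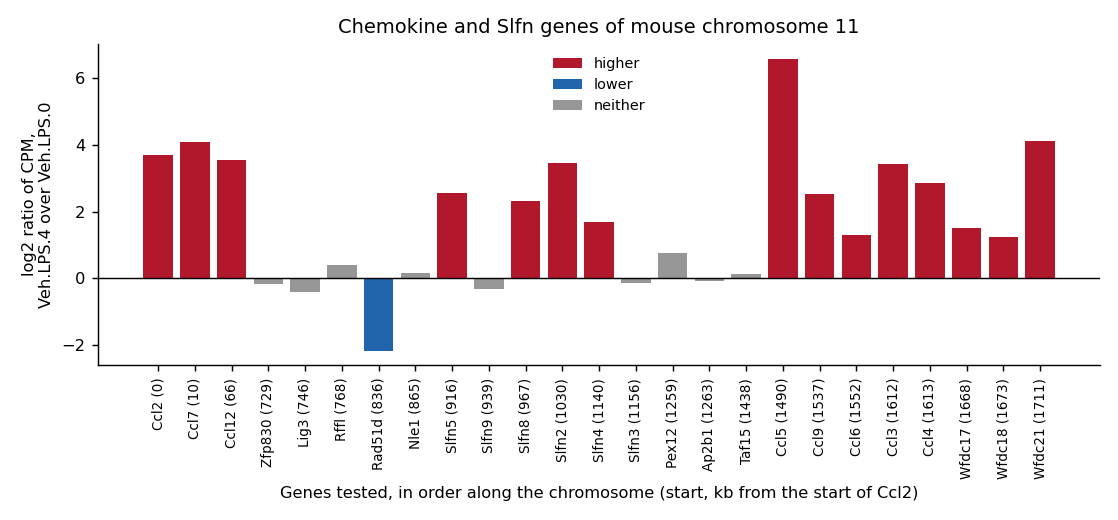
Log2 ratio of CPM at 4 h over 0 h for the 25 assessed protein-coding genes from Ccl2 to Wfdc21, in chromosomal order, with the distance from the start of Ccl2 in kb in brackets. The 3 chemokine genes at the left and the 8 genes at the right are all higher, with Ccl5 at 6.59.

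Among receptor genes, more were higher than lower. Of 16 assessed chemokine receptors and other G protein-coupled receptors, 9 were higher and 1, Gpr183, was lower, with a median of 1.09. Of all genes assessed, 5.72% were higher and 13.8% lower. Ccrl2, which binds chemerin without signalling, was higher, from 1.64 to 23.3 CPM, Gpr84, a receptor for medium-chain fatty acids, from 37.9999 to 383 CPM, and C5ar1, the receptor of complement C5a, from 16.2 to 99.8 CPM. Hcar2, the niacin receptor, had 39.5 CPM after 4.34, and Ccr1, a receptor of Ccl3 and Ccl9, 109 after 36.5. Cx3cr1, the fractalkine receptor, had 88.8 and 84.4 CPM and was not called. Gpr183, which guides cells along oxysterols, had the lowest ratio of all genes seen in 50% or more of the cells of Veh.LPS.0 or Veh.LPS.4. It had 100.3, 42.9 and 4.39 CPM at 0, 1 and 4 h, 22.9-fold lower at 4 h, and was seen in 91.5% of cells before LPS and 16.7% after 4 h, or 78.9% and 7.25% with every cell thinned to 20000 UMIs.

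Genes of the LPS receptor and its adaptors had smaller ratios than the cytokines. Of 22 genes of this list, all assessed, 3 were higher and none lower, where 5.72% and 13.8% of all genes assessed were. Their median was 0.14. Tlr4 itself had 32.001 CPM in Con and 20.9, 14.6 and 16.96 CPM in Veh at 0, 1 and 4 h, a log2 ratio of -0.30 that was 0.09 with TMM factors. Its partner MD-2, encoded by Ly96, was higher, from 17.1 to 44.6 CPM, and the co-receptor Cd14 from 771 to 1943 CPM. Ikbke, a kinase of the branch to IRF3, was higher, from 15.3 to 49.8 CPM. The adaptor Myd88 and the kinase Irak2 had log2 ratios of 0.65 and 0.83, and Irf3, Irak4 and Ticam2, which encodes the adaptor TRAM, had -0.89, -1.10 and -1.20, none of them called. Among 23 other pattern recognition and Fc receptor genes, 6 were higher and 1 lower. Trem1, an amplifier of inflammatory signals, went from 7 UMIs to 13.2 CPM. Nlrp3, the sensor of the inflammasome that processes interleukin 1β, had 28.8, 595 and 443 CPM at 0, 1 and 4 h. Casp4, the mouse caspase 11 that senses LPS in the cytosol, was higher, from 15.9 to 52.6 CPM, while Casp1, the caspase that cleaves pro-interleukin 1β, had 37.4 and 26.997 CPM and was not called. Clec4e, the receptor Mincle, was higher, from 166 to 1211 CPM and Tlr2 from 52.7 to 187 CPM. Fcgr1, the high-affinity receptor for IgG, was lower, from 54.8 to 12.8 CPM, and Trem2 had 351 and 173 CPM, past 2-fold with CPM but not with TMM factors.

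Of the 5 NF-κB subunits, 3 were higher and none lower. Nfkb1 (p105) had 50.1, 124 and 311 CPM at 0, 1 and 4 h, Nfkb2 (p100) 19.6, 30.3 and 84.4 CPM, and Rel 41.5, 161 and 127 CPM. Relb and Rela had log2 ratios of 0.73 and 0.57 and were not called. Of 22 genes of negative feedback on NF-κB, 12 were higher and 3 lower, with a median of 1.05. The 13.6% that were lower were near the 13.8% of all genes assessed, of which 5.72% were higher. Nfkbia, the inhibitor IκBα, had 221, 1503 and 1002 CPM, Tnfaip3, the deubiquitinase A20, 4.10, 166 and 27.1 CPM, and Nfkbiz, a nuclear IκB, 6.75, 510.1 and 185 CPM. All 3 were lower at 4 h than at 1 h and above their level at 0 h. Zc3h12a, the RNase regnase-1 that degrades cytokine mRNAs, was higher at 4 h than at 1 h, with 10.8, 74.1 and 109 CPM. Traf1, an adaptor of TNF receptors, was higher, from 26.6 to 306 CPM. Cyld, another deubiquitinase of the pathway, was lower, from 40.5 to 13.8 CPM, as were Zfp36l1, which destabilizes mRNAs, from 8.16 to 2.03 CPM, and Sigirr, an inhibitory receptor, from 9.80 to 2.12 CPM.

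Genes of feedback on cytokine signalling were more often higher than lower. Socs3, which blocks gp130 receptors, was higher, with 14.7, 164 and 103 CPM at 0, 1 and 4 h, and Socs2, a brake on growth hormone and related receptors, was lower, from 9.75 to 1.96 CPM. Socs1 had 3.18 and 6.21 CPM and passed the limit with TMM factors alone. Pim1, a kinase induced by STAT factors, was higher, from 63.3 to 266 CPM, Bcl6, a transcriptional repressor, from 2.97 to 18.3 CPM, and Il10ra, a chain of the interleukin 10 receptor, from 5.47 to 18.6 CPM, while Stat3 had a log2 ratio of -0.07. Of the 15 genes, 6 were higher and 1 lower, where 5.72% and 13.8% of all genes assessed were.

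Immediate early genes showed what remained at 4 h. Of 24 assessed, 13 were higher and 3 lower, with a median of 1.29. The 12.5% that were lower were near the 13.8% of all genes assessed, of which 5.72% were higher. Egr1, a zinc finger factor induced within minutes of stimulation, had 9.66, 648 and 17.8 CPM at 0, 1 and 4 h, and Jun 66.3, 451 and 63.7 CPM, and neither was called at 4 h. Fos had 18.6, 156 and 6.66 CPM and was called lower at 4 h, 2.80-fold below 0 h. Junb, Ier3, which protects from cell death, and Dusp5, a nuclear phosphatase of ERK, stayed higher, with 419, 1309 and 41.3 CPM after 1427, 3592 and 115 at 1 h. Atf3, a repressor of inflammatory genes, and Myc, a driver of growth, were higher at 4 h than at 1 h, with 39.7, 144 and 419 CPM and 0.577, 4.15 and 11.1 CPM. Klf4, a factor of monocyte differentiation, was lower at 4 h, with 71.4, 44.6 and 10.1 CPM.

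Interferon-induced genes were higher as a group. Of 32 assessed, 26 were higher and none lower, with a median of 1.97, where 5.72% of all genes assessed were higher and 13.8% lower. Another 10 of the 42 in the files were under the limit for assessment. Members such as Ifit1 and Rsad2 were near 0 CPM at 0 h and assessed only through their 4 h level, which fixed their calls. Ifit1, which binds viral RNA, had 0.435, 1.99 and 43.6 CPM at 0, 1 and 4 h, a log2 ratio of 6.64 (6.21 to 7.11). Rsad2, the enzyme viperin, was higher, from 0.111 to 7.65 CPM, Isg15, a ubiquitin-like modifier, from 2.005 to 47.4 CPM, and Usp18, the protease that removes it, from 1.90 to 31.5 CPM. Oasl1 was higher, from 7.44 to 151 CPM and Ifi202b from 27.3 to 97.5 CPM. Slfn2 had the highest level of the list, with 91.99, 407 and 1007 CPM at 0, 1 and 4 h. At 1 h Ifit1, Rsad2, Isg15 and Usp18 were still between 0.402 and 2.65 CPM. Ifih1, the RNA sensor MDA5, was higher, from 4.92 to 31.4 CPM, while Ddx58, the sensor RIG-I, with a log2 ratio of 0.88, Oas3, with 0.30, and Gbp7, with -0.24, were not called, and Gbp7 had the lowest ratio of the list.

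Among 12 assessed factors and receptors of the interferon system, 3 were higher and none lower, where 5.72% and 13.8% of all genes assessed were. Irf7, which amplifies interferon production, had 8.47, 4.92 and 32.6 CPM, Irf9, the DNA-binding partner of STAT factors, 18.3, 13.1 and 47.4 CPM, and Irf1 4.27, 14.2 and 10.5 CPM. Stat2 and Irf8 had log2 ratios of 0.47 and 0.57, and the receptor-bound kinase Jak1 -0.12. Irf2, an antagonist of Irf1, had the lowest ratio, just past 2-fold lower with CPM and at -0.61 on the log2 scale with TMM factors.

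Of 18 genes of antigen presentation and costimulation, 5 were higher and none lower, where 5.72% and 13.8% of all genes assessed were. Their median was 0.36. The costimulatory molecules Cd40 and Cd80 were higher, from 3.70 to 31.9 CPM and from 13.1 to 39.8 CPM, Cd83, a maturation marker, from 10.5 to 76.9 CPM, and the adhesion molecule Icam1 from 39.7 to 101 CPM. Cd86, the other ligand of CD28, had 26.99 and 35.4 CPM and was not called. H2-D1, a class I heavy chain, had a log2 ratio of 0.33, Cd74, the invariant chain, -0.08, and Psmb9, a subunit of the immunoproteasome, the lowest of the list, -1.14. The class II genes H2-Aa, H2-Ab1 and H2-Eb1 had at most 2 UMIs in either library.

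Enzymes that make itaconate, nitric oxide and polyamines were among the higher genes of amino acid metabolism. Of 17 assessed genes 9 were higher and none lower, where 5.72% and 13.8% of all genes assessed were. Their median was 1.01. Nos2 and Il4i1 were near 0 CPM at 0 h and assessed only through their 4 h level, which fixed their calls. Acod1, which makes itaconate from an intermediate of the citric acid cycle, had 2.17, 56.7 and 885 CPM at 0, 1 and 4 h, a ratio of 408 (357 to 469). Nos2, the inducible nitric oxide synthase, went from 8 UMIs to 11.997 CPM, and Gch1, which starts the synthesis of its cofactor, was higher, from 56.3 to 145 CPM. Arg2, the mitochondrial arginase, was higher, from 24.5 to 73.6 CPM, while Arg1 had 6 UMIs at 4 h. Odc1, the entry enzyme of polyamine synthesis, was higher, from 1334 to 5857 CPM. Il4i1, a secreted amino acid oxidase, was higher, from 0.527 to 37.4 CPM, and Slc7a11, the cystine importer, from 28.4 to 262 CPM. Psat1, of serine synthesis, had the lowest log2 ratio, -0.57. Ido1, which degrades tryptophan, had no UMI in either library.

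Of 11 assessed genes of prostaglandin and leukotriene synthesis, 2 were higher and 1 lower, where 5.72% and 13.8% of all genes assessed were. Their median was -0.55. Ptgs2, the inducible cyclooxygenase COX-2, had 4.13, 35.6 and 465 CPM at 0, 1 and 4 h, and Ptges, which turns its product into prostaglandin E, was higher, from 1.61 to 8.84 CPM. Ptgs1, the constitutive cyclooxygenase, had 96.2 CPM in Con, 28.9 at 0 h and 14.7 at 4 h. Alox5, the first enzyme of leukotriene synthesis, was lower, from 34.3 to 12.5 CPM, and its partner Alox5ap had a log2 ratio of -0.89 and was not called. Among the 15 genes of highest ratio was also Ptgs2os2, a transcript beside Ptgs2, from 1.06 to 30.9 CPM.

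Secreted proteins, metal carriers and related genes were mostly higher, 19 of 27 with none lower and a median of 1.70. Over all genes assessed, 5.72% were higher and 13.8% lower. Mmp13 and Timp1 were near 0 CPM at 0 h and assessed only through their 4 h level, which fixed their calls. Saa3, an acute phase protein made by macrophages, was higher, from 2.03 to 162 CPM, and Lcn2, which binds bacterial iron carriers, from 4.24 to 284 CPM. Mmp13, a collagenase, and Timp1, an inhibitor of such enzymes, each had 1 UMI at 0 h and 24.9 and 4.56 CPM at 4 h, log2 ratios of 11.27 (8.79 to 16.57) and 8.81 (6.32 to 14.12). The metallothioneins Mt1 and Mt2, which bind zinc, had 308, 1719 and 1975 CPM and 69.6, 484 and 992 CPM, and Sod2, the mitochondrial superoxide dismutase, was higher, from 229 to 1029 CPM. Slpi, a protease inhibitor, was higher, from 134 to 701 CPM. Spp1, osteopontin, went from 6803 to 12599 CPM, a log2 ratio of 0.89 that passed 2-fold with TMM factors alone, at 1.29. The ferritin heavy chain Fth1 had 11841 and 16453 CPM and the light chain Ftl1 9087 and 8029, neither called, and both share reads with copies elsewhere in the genome.

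Genes that keep cells alive and genes that end them went both ways. Of 28 assessed 11 (39.3%) were higher and 3 (10.7%) lower, where 5.72% and 13.8% of all genes assessed were. Their median was -0.11, against -0.41 for all genes assessed. Bcl2a1a, Bcl2a1b and Bcl2a1d, near-identical survival genes between which reads could be split, were higher by 3.24, 2.89 and 2.63 on the log2 scale. Mcl1, a survival protein of short half-life, had 475, 1789 and 1088 CPM at 0, 1 and 4 h, and Bcl2, another member of the family, was lower, from 27.1 to 8.38 CPM. Bcl2l11, the death-promoting protein Bim, was higher, from 21.6 to 185 CPM, as was Gadd45b, which is induced by stress, from 26.7 to 249 CPM.

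Among 21 assessed genes of macrophage lineage and growth factor receptors, 4 were higher and 4 lower, 19.0% each. Over all genes assessed, 5.72% were higher and 13.8% lower. Spi1, the lineage factor PU.1, had a log2 ratio of 0.70 and Zeb2 of 0.64, and neither was called. Cebpd was higher, from 33.3 to 232 CPM, Cebpb had 259 and 504 CPM, with a log2 ratio of 0.96, and Cebpa was lower, from 11.2 to 3.72 CPM. Mef2c, a transcription factor of the MADS family, had 369.5, 298 and 61.04 CPM at 0, 1 and 4 h, with a UMI in 99.2% of thinned cells at 0 h and 61.1% at 4 h, or 99.9% and 84.4% unthinned. Id3, an inhibitor of helix-loop-helix factors, had 87.03 CPM in Con, 1.002 in Veh.LPS.0, 37.2 at 1 h and 26.5 at 4 h, so its level after LPS was between those of Veh.LPS.0 and Con. Tgfbr2, a chain of the TGFβ receptor, was lower, from 51.98 to 12.7 CPM. Csf1r, the receptor of M-CSF, had 89.2 and 36.7 CPM and was past the limit with CPM alone.

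Cell division genes were the group with the most lower calls. All 30 assessed mitosis genes had a ratio below 1, as had 72.7% of all genes assessed, and 29 were called lower, with a median of -2.20. Of 30 DNA replication genes 18 were lower and none higher, with a median of -1.49, and 13.8% of all genes assessed were lower. Mki67, the proliferation marker Ki-67, had 584 CPM in Con and 477, 486 and 97.3 CPM in Veh at 0, 1 and 4 h. Plk1, a mitotic kinase, was lower, from 54.2 to 6.38 CPM, 8.50-fold, with Aurkb and Cenpf lower by log2 ratios of -2.77 and -2.90. The condensin subunit Smc2 was the 1 mitosis gene past the limit with CPM only, at -1.25. Tk1, the thymidine kinase of S phase, was 11.8-fold lower, from 58.9 to 5.0001 CPM, Mcm6, of the replicative helicase, was lower, from 75.8 to 14.6 CPM, and Dnmt1, which copies DNA methylation, from 123 to 22.3 CPM. Pcna and Tyms, also needed for DNA synthesis, had log2 ratios of -0.15 and -0.34, which were 0.24 and 0.06 with TMM factors. Log2 ratios of replication genes ran from -3.56 to -0.15 and those of mitosis genes from -3.09 to -1.25.

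Among the genes that govern the cycle both drivers and inhibitors were lower. Of 19 assessed 11 were lower and 2 higher, where 13.8% and 5.72% of all genes assessed were. The D cyclins differed, with Ccnd1 at 835, 626 and 286 CPM and Ccnd3 at 76.7, 61.1 and 12.8 CPM at 0, 1 and 4 h, both lower at 4 h, and Ccnd2 at 146, 145 and 156 CPM, not called. The inhibitor Cdkn2d (p19) was lower, from 68.7 to 10.3 CPM, and Cdkn1a (p21) had 511, 978 and 367 CPM and was not called at 4 h. Myc was the list's highest and Mycn, its relative, was lower, from 104 to 33.02 CPM. Cdk6, a partner of the D cyclins, had a log2 ratio of 0.73, and Btg1, an antiproliferative gene, was higher, from 142 to 412 CPM. Of 13 assessed histone genes 9 were lower, Hist1h1d most at -3.05, and H3f3b, a variant made outside S phase, had the highest at 0.85. Replication-dependent histone mRNAs mostly lack a poly(A) tail and have near copies, so their values are uncertain. At 1 h, Hist1h1d already had 12.2 CPM and Hist1h1b 206 CPM, after 71.4 and 491 at 0 h, while Mki67 had 486 CPM after 477. A lower sum can come from fewer dividing cells or from less RNA per cell. A Mki67 UMI was found in 77.03% of thinned cells at 0 h and in 35.5% at 4 h, or in 82.8% and 48.8% unthinned.

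Some genes at the ends of the range stood in none of these groups. The 15 highest ratios among genes seen in 50% or more of the cells of Veh.LPS.0 or Veh.LPS.4 belonged to Il1b, Il1a, Il1f6, Lif, Csf3, Acod1, Cxcl2, Ptgs2, Saa3, Lcn2, Gm12840, Mir155hg, Ptgs2os2, Tnfrsf1b and Nfkbiz. Mir155hg, the host transcript of a microRNA known from activated immune cells, was higher, from 0.759 to 30.9 CPM, and Tnfrsf1b, a receptor of TNF, from 3.68 to 106 CPM. The gene model Gm12840 went from 0.861 to 54.5 CPM. At 1 h these 3 had 45.1, 4.79 and 84.6 CPM.

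The lower genes reached well outside the cycle. Among the 15 lowest ratios under the same limit were those of Gpr183, Rasa3, Klhl6, Chek2, Bmyc, Aspm, Cbx6, Tk1, Jade1, Susd3, Frmd4b, Vsir, Plk1 and Hist1h1d. Rasa3, which switches off Ras and Rap, was lower, from 26.95 to 1.84 CPM, and Klhl6, known from B cells, from 35.04 to 2.63 CPM. Chek2, a kinase of the DNA damage response, was lower, from 21.5 to 1.66 CPM. Cbx6 and Jade1, which act on chromatin, were lower, from 25.9 to 2.15 CPM and from 32.2 to 3.33 CPM. So was Vsir, the inhibitory checkpoint VISTA, from 25.8 to 3.003 CPM. At 1 h these 6 genes were at 17.6 to 24.3 CPM, against 21.5 to 35.04 CPM at 0 h.

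Genes of energy metabolism were seldom called. None of 25 nuclear genes of the respiratory chain was called, with a median of -0.41, from -0.76 for Ndufv2 to 0.13 for Cycs, and Cox4i1 at -0.24. With CPM 24 of them had a ratio below 1 and with TMM factors 13, where 50.8% of all genes assessed had. Of 24 genes of glycolysis and hypoxia, 2 were higher and 2 lower, 8.33% each, near the 5.72% and 13.8% of all genes assessed. The glucose transporters Slc2a1 and Slc2a6 were higher, from 67.9 to 169 CPM and from 22.9 to 47.5 CPM. The transporter Slc2a3 was lower, from 8.54 to 2.20 CPM. The enzymes Pkm and Ldha had log2 ratios of -0.28 and -0.28, which were 0.12 and 0.12 with TMM factors. Hk2, the inducible hexokinase, had 0.69, and Hif1a, the hypoxia factor, -0.24. Pdk1, a kinase that inhibits pyruvate dehydrogenase, was lower, from 41.3 to 13.3 CPM. All 13 mitochondrial mRNAs were between -0.44 and 0.21.

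Of 20 enzymes of cholesterol synthesis 1 was lower, Dhcr7, the last enzyme of a branch, from 27.9 to 6.66 CPM, and none higher. Idi1, at 0.92, was the highest, with 160.4, 276 and 304 CPM at 0, 1 and 4 h. Insig1, which holds back the pathway, had 41.4, 224 and 90.1 CPM and was called higher at 4 h, and Abcg1, which exports cholesterol, was lower, from 19.1 to 5.79 CPM. Hilpda, an inhibitor of lipid droplet breakdown, was higher, from 12.98 to 80.2 CPM. Lpl, which releases fatty acids from lipoproteins, had a log2 ratio of -0.11. Of 27 lysosome genes 2 (7.41%) were lower and none higher, where 13.8% and 5.72% of all genes assessed were. Tfeb, the master factor of lysosome genes, was 8.01-fold lower, from 10.3 to 1.28 CPM, while the cathepsins Ctsl and Ctsc had log2 ratios of 0.16 and 0.997. Neu1, a sialidase, was the other lower gene, from 70.9 to 25.6 CPM.

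Stress responses were partial. Of 25 genes of the ER stress response and of ER chaperones, 7 were higher and none lower. Over all genes assessed, 5.72% were higher and 13.8% lower. Herpud1, which serves the disposal of misfolded proteins, was higher, from 49.998 to 325 CPM, Atf4, a factor of the integrated stress response, from 219 to 596 CPM, and Hspa5, the chaperone BiP, from 1089 to 2223 CPM, while Xbp1 had a log2 ratio of 0.03 and Ddit3 of 0.56. Hspa5, at 1.03, was close to the limit and under it with a mitochondrial limit of 10%, at 0.98, and in 2 other alternatives. Of 20 NRF2 and antioxidant genes 5 were higher and none lower. Sqstm1, the autophagy adaptor p62, was higher, from 153 to 911 CPM and Prdx1, a peroxidase, from 901 to 2174 CPM. Gpx4, which reduces lipid peroxides, had 469 and 218 CPM, past 2-fold with CPM alone. Of 30 genes of ribosome assembly in the nucleolus none was called, though 23 had a ratio above 1 with CPM and 29 with TMM factors, where 27.3% and 49.2% of all genes assessed had, from -0.87 for Rrp1b to Nop58, the highest, at 0.92. Among the genes of largest gain in CPM outside these lists was Actb, cytoplasmic actin, from 3389 to 5772 CPM, which was past 2-fold with TMM factors alone. The 10 largest losses in CPM, from mt-Co3, from 19312 to 17185 CPM, to Rps29, from 3834 to 3016 CPM, were of abundant genes with log2 ratios of -0.63 to -0.13, none called, and 8 of the 10 turned positive with TMM factors.

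Cells of Veh.LPS.4 shared some of these mRNAs and not others. To compare cells, each was thinned to 20000 UMIs, and none was left out, since all held more. Of the 167 higher genes with a mean of at least 2 UMIs per thinned cell at 4 h, 46 lacked a UMI in under 1% of cells and 64 in over 10%, with a median of 6.14% of cells. Every cell held UMIs of Ccl3, Ccl4, Ccl9, Odc1, Tnf, Srgn, Denr, Hspa5, Prdx1 and Stap1. The part of free RNA from the droplets in these counts was not tested. Odc1 had 54, 114 and 183 UMIs at the 5th, 50th and 95th percentile of cells, and 91.8% of cells were above the 95th percentile of Veh.LPS.0, which was 62 UMIs. Tnf, with the same percentiles at 6, 26 and 150, was in every cell but spread over a wider range.

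At the other end stood Ccl5, Saa3, Il1a, Lif, Lcn2, Ifi202b, Oasl1, Il1b, Car2 and Socs3. Ccl5 had a mean of 3.65 UMIs per thinned cell and was missing from 72.8% of cells, where an equal level in all cells would leave 2.60% without. The tenth of cells with most Ccl5 held 91.8% of its UMIs. Saa3 was missing from 59.4% of cells, Il1a from 55.5% and Lcn2 from 43.001%, against 4.77%, 2.45% and 0.424% at an equal level. Il1b had a mean of 15.8 UMIs, a median of 2 and a 95th percentile of 86, and 32.1% of cells had none. At 4 h the interferon-induced Ifit1 had a UMI in 17.3% of cells and Nos2 in 12.5%. Both had a mean under the limit of 2 UMIs per thinned cell, so an equal level in all cells would also leave many cells without. Spearman's rho over the 993 thinned cells, which share 1 library and 1 depth, was 0.65 between Il1a and Il1b, 0.77 between Ccl3 and Cxcl2, 0.72 between Ccl3 and Csf3 and 0.45 between Il1b and Ccl3. It was 0.04 between Ccl5 and Il1b, 0.08 between Ccl5 and Ccl3, 0.07 between Oasl1 and Ccl3, -0.07 between Ifi202b and Ccl3 and -0.06 between Socs3 and Ccl3. Genes missing from many cells went together in some pairs, with 0.39 between Ifi202b and Oasl1, 0.34 between Saa3 and Lcn2 and 0.24 between Ccl5 and Oasl1. Other such pairs did not, with 0.04 between Ccl5 and Saa3 and -0.02 between Saa3 and Ifi202b.

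**Figure D5:**
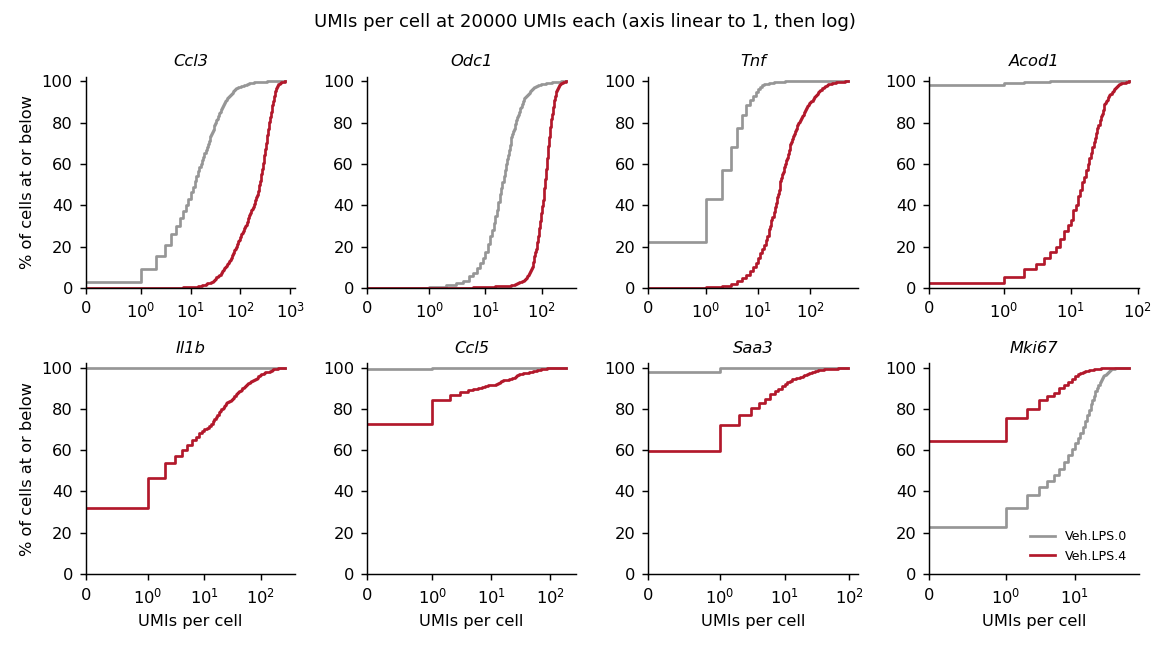
Share of cells with at most the given number of UMIs (horizontal axis linear to 1, then log) for 8 genes in Veh.LPS.0 (grey, 2481 cells) and Veh.LPS.4 (red, 993 cells), each cell thinned to 20000 UMIs. For Ccl3, Odc1 and Tnf no cell at 4 h is without a UMI, for Il1b 32.1%, for Saa3 59.4% and for Ccl5 72.8% are, and for Mki67 the order of the 2 curves is turned round.

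The DHA cultures gave a second pair of libraries at the same hours that shared none with the Veh pair. They had also been given DHA and so are not replicates, and DHA.LPS.4 held 692 cells. The mitochondrial limit was missed by 76.4% of deposited barcodes in DHA.LPS.0, 74.4% in DHA.LPS.1 and 80.0% in DHA.LPS.4. Of all barcodes 18.5% were kept in DHA.LPS.0 and 12.1% in DHA.LPS.4, against 55.6% in Veh.LPS.0 and 40.6% in Veh.LPS.4. The part of this difference in the DHA values was not tested. Of the 560 genes higher in Veh, 542 (96.8%) were above 1 in DHA.LPS.4 over DHA.LPS.0, with a median log2 ratio of CPM of 1.47. Of the 1354 lower genes all were below 1, with a median of -1.51. Of all genes assessed, 67.9% were below 1 in the DHA pair, with a median of -0.30. Il1b had no UMI in DHA.LPS.0 and 485 CPM after 4 h of LPS, Csf3 3.83 and 2305 CPM, and Gpr183 73.8 and 5.58 CPM. Il6 had 1.88, 6.10 and 16.9 CPM in DHA at 0, 1 and 4 h, so it started from a higher level and ended at a lower one than in Veh. Ccl5 had 52.2, 63.9 and 274 CPM, and its level without LPS was above that of any library of Veh before 4 h.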

How the data were processed

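The authors made the libraries with a droplet kit that captures 3′ ends (v3 chemistry) and deposited a matrix of UMI counts per gene and barcode for each library. The submitters' processing notes name Cell Ranger 3.1.0 and build mm10, while the study's methods name another release of the same tool. These deposited counts are not normalized. Of the 7 libraries, 2, Veh.LPS.0 and Veh.LPS.4, were compared, and the other 5 were used for levels at other hours and for the DHA pair. Con, Veh and DHA, and the hours of LPS, were taken from the sample labels.

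Barcodes with more than 20000 UMIs, at least 2000 genes and under 20% mitochondrial UMIs were kept, which left 2481 and 993 cells and 98763388 and 58598526 UMIs. The cells of the 2 libraries shared 1 barcode. No doublet caller was run, and the tenth of cells with most UMIs was left out as an alternative. UMIs were summed per gene and library and divided by the library total (CPM), or by the total times a TMM factor from edgeR 4.0.16. Ratios have exact binomial 95% intervals, and a count of 0 was set to a floor of 3 UMIs over the library for bounds. Genes with a mean of at least 2 CPM were called by a ratio over 2-fold with both scalings. The ratio and the calls were tested on simulated counts that had counting error alone, with the true shift in scaling given. Neither the TMM factors nor variation between cultures was tested in that way. For shares of cells, each cell was thinned to 20000 UMIs (seed 7). UMIs mark molecules, and the intervals cover counting error only, since cells of a library are not replicates.

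Named genes were the 15 highest and 15 lowest ratios among genes seen in 50% or more of cells, and the 10 largest gains and losses of CPM. The extremes and a few other members of each of 30 gene lists were named, with all members of lists of up to 12. Cell type markers were named as well. Higher genes with a mean of at least 2 UMIs per thinned cell at 4 h were ranked by the share of cells lacking a UMI. The 10 at each end of that ranking were named. The comparison, its lists and its limits were chosen with earlier results of these data known. Alternatives were other scalings (DESeq2 1.42.0 size factors, UMIs per cell), filters on genes and barcodes, weights of cells, cells with few cycle UMIs, and fold limits. Positions are those of RefSeq for GRCm38.p6. Cxcl11, Clec7a and Mx2 were not analysed here. A few genes of the lists are not reported here by name. Python 3.11.15, numpy 2.4.6, scipy 1.17.1, pandas 2.3.3, matplotlib 3.10.9 and R 4.3.3 were used.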

Additional observations from a re-analysis of the deposited data

Results flagged for a closer look

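Of the 560 genes called higher in Veh, 7 had a ratio of CPM past 1.5-fold in the opposite direction in the DHA pair. Values are log2 ratios of CPM at 4 h over 0 h, with 1 library a point, and the difference between the pairs was not tested. The Veh calls needed both scalings, while the limit in the DHA pair was set with CPM alone. In that pair the median of all genes assessed was -0.30. Read against this median, Irf7, Zbp1, Rgs2 and Bglap2 fell short of 1.5-fold, so their place here depends on the scaling. Ifit2, Ifi44 and Gm33103 stayed past it. Only 18.5% of deposited barcodes were kept in DHA.LPS.0 and 12.1% in DHA.LPS.4, against 55.6% in Veh.LPS.0 and 40.6% in Veh.LPS.4. Irf7, a factor that amplifies interferon production, had 1.945 in Veh and -0.63 in DHA, with 8.47 and 32.6 CPM in Veh and 17.5 and 11.3 CPM in DHA. The interferon-induced Ifit2 had 1.827 and -1.52, with 4.56 and 16.2 CPM in Veh and 9.51 and 3.31 CPM in DHA. Ifi44, also interferon-induced, had 1.15 and -2.01, and Zbp1, a sensor of nucleic acids, 2.233 and -0.77, with 30 and 27 UMIs in DHA.LPS.4. All 4 started from a higher CPM at 0 h in DHA.

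Rgs2, a brake on G protein signalling, had 1.231 in Veh and -0.70 in DHA, with 35.1 and 82.4 CPM in Veh and 42.3 and 26.0 CPM in DHA. Bglap2, an osteocalcin gene with a near copy, had 2.838 and -0.83, and started at 1.08 CPM in Veh and 13.1 CPM in DHA. The uncharacterised Gm33103 had 1.934 and -1.33 and rested on 48 and 12 UMIs in the DHA pair.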

How the results depend on the processing

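No paired analysis was possible because each condition had 1 library. The split of calls turned on the scaling. CPM alone gave 2371 lower genes, while TMM factors alone gave 966 higher genes, DESeq2 size factors 1003 and UMIs per cell 1231. With UMIs per cell 1039 genes were lower, so that the balance turned to more higher than lower genes. With no minimum level, 1240 genes were higher and 2507 lower, with a minimum of 10 CPM 664 were lower, and among genes seen in 50% or more of cells 527 were lower. A limit of 1.5-fold gave 992 higher and 2435 lower genes, and 4-fold gave 202 and 253. Each of these filters and limits assessed fewer or more genes, or asked for another size, by construction. All deposited barcodes, other limits on UMIs or mitochondrial share, no shared barcodes, no cells of highest UMIs, thinned or equally weighted cells, cells with few cycle UMIs and a total without mitochondrial and ribosomal genes gave 517 to 571 higher and 1312 to 1411 lower genes. Single values moved more. In the 1 in 3 cells of lowest cycle share, which were not matched between the libraries, 22 values moved by over 1.5 times or lost their call, among them the log2 ratios of Ptgs2 (5.80), Lif (8.66), Ccl5 (5.47), Tnf (3.30), Acod1 (7.98), Chek2 (-4.72) and Hist1h1d (-4.37) and the medians of CC chemokines (2.69) and DNA replication (-3.04), so this choice does not separate fewer dividing cells from less RNA per cell. Without the tenth of cells with most UMIs Ccl5 was at 7.37 and Csf3 at 10.57. Thinning put Lif at 9.82 and the bounds of Il1b and Il1a at 13.68 and 11.58. Hspa5 was under 2-fold with a mitochondrial limit of 10% (0.98), in the cells of lowest cycle share (0.88) and without mitochondrial and ribosomal genes in the total (0.96). None of the 89 named ratios and medians that had been called changed direction. With 1 library a side, no alternative measures how much a second culture would differ.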
